A study of Rattus norvegicus with 6 samples.

Results

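A set of 10 genes of the first steps of fatty acid use was followed in cultured neonatal rat ventricular myocytes, heart muscle cells taken from newborn pups. The genes were chosen by name: the membrane fatty acid receptor gene Cd36, the transport protein genes Slc27a1 and Slc27a4, the binding protein genes Fabp3, Fabp4 and Fabp5, and the long-chain acyl-CoA synthetase genes Acsl1, Acsl3, Acsl4 and Acsl5. This choice was made with earlier results of these data known. All 10 were found among the 21648 genes of the count table, and all 10 passed the filter on low counts. The cells were wild type, came from pups at postnatal day 3 and were plated with 100 µM bromodeoxyuridine after a step that lets fibroblasts attach and be removed. They were then moved to medium with insulin, transferrin and selenium. The DMSO group received the solvent and the 915 group 10 µM of compound 915, described in the deposited design as an agonist of ERRs (estrogen-related receptors), each for 72 h. Each group held 3 libraries, labelled as biological replicates. Whether a separate isolation stands behind each library is not stated, so the tests rest on a spread that could be technical in part. The libraries held 30639244 to 40010826 counts.

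Long-chain fatty acids enter heart muscle cells with the help of CD36 and of the fatty acid transport proteins of the SLC27 family, which also carry acyl-CoA synthetase activity. Inside the cell they are carried by small fatty acid binding proteins, of which FABP3 is the heart and muscle form, FABP4 the form of adipocytes, macrophages and capillary endothelium, and FABP5 a form of many tissues. Acyl-CoA synthetases then join them to coenzyme A. ACSL1 is the main form of heart and is tied to oxidation, ACSL3 sits at the endoplasmic reticulum and lipid droplets, ACSL4 prefers arachidonic acid and other polyunsaturated acids, and ACSL5 is found at mitochondria and endoplasmic reticulum. Cd36, Fabp3 and Acsl1 are textbook targets of PPAR receptors.

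The promoters of 8 of the 10 genes were matched in RefSeq's table for the rat build GRCr8 (a later build than the Rnor_6.0 of the counts). The 250 bases before the annotated start are shown for Fabp3 and Cd36, which rose most, for Slc27a1, whose window was the only member window with the nuclear receptor core hexamer AGGTCA, and for Acsl3, which fell most. They lie at chr5:147935875-147936124, chr4:18246332-18246581, chr16:18312717-18312966 and chr9:87563351-87563600, all on the plus strand, and are written 5′ to 3′. Capitals mark the AGGTCA hexamer, the TATA box TATAAA, the CCAAT box and the GC box GGGCGG on either strand.
Fabp3: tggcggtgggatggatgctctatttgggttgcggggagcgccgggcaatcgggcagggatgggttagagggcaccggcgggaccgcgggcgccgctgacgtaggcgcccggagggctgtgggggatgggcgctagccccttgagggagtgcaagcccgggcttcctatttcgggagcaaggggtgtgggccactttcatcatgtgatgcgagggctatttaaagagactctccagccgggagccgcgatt
Cd36: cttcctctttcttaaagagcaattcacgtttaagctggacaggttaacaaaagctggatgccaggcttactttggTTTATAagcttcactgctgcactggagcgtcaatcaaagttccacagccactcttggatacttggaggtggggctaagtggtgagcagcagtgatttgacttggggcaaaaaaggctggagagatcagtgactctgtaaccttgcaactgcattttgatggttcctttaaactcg
Slc27a1: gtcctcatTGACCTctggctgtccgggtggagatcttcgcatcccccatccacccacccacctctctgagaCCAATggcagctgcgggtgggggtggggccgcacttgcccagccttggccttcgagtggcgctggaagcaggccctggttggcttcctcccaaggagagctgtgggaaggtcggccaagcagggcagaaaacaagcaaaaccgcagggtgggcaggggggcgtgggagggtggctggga
Acsl3: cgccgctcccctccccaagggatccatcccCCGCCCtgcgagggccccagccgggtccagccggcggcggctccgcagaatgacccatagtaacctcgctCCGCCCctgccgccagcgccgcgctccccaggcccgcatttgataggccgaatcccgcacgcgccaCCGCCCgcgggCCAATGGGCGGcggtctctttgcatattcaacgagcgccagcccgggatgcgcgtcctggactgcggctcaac
Both strands of the 250 bases were searched for each motif, and overlapping matches were counted. The extended receptor motif TCAAGGTCA, which estrogen-related receptors are known to bind, was in 0 of the 8 member windows and in 0.388% of all 33469 windows. The direct repeat known as DR1 that PPAR and RXR bind, searched as 2 AGGTCA hexamers in the same orientation with 1 base of any kind between them, was in 0 of 8 and in 0.0508% of all. The AGGTCA hexamer, which both of those contain, was in 1 of 8 (Slc27a1, minus strand, 242 bases before the start) and in 14.1% of all. TATAAA was in the windows of Acsl5 and Cd36 (12.9% of all), CCAAT in those of Acsl3, Slc27a1 and Acsl1 (34.0% of all) and GGGCGG in those of Slc27a4, Acsl3 and Acsl4 (30.5% of all). The Acsl3 window held 4 GGGCGG matches and was 72.4% G or C, against 45.6% for Cd36 and 65.6% for Fabp3. These are matches of letters at 1 annotated start per gene, and other starts were not searched. For motifs as rare as TCAAGGTCA and this DR1, 0 of 8 cannot tell the member windows from the rest. Sites with other letters or farther from the start would not be found.

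With 915, 7 of the 10 genes were higher and 2 were lower, and Fabp4 did not pass the test. Across all 14253 genes tested by edgeR (quasi-likelihood fit, threshold of 0.05 on the adjusted p), 24.3% were called higher and 25.5% lower. In CPM, 7 of the 10 genes had every 915 library above every DMSO library and 3 had every 915 library below, which held for 23.9% and 32.8% of all genes tested. The median log2 fold change was 0.46 over the 10 genes and −0.01 over all genes tested. Since the 10 genes were chosen with earlier results of these data known, these comparisons with all genes are descriptive. The rises were large for Fabp3, Cd36 and Acsl1, intermediate for Fabp5 and Slc27a1 and small for Slc27a4 and Acsl5. Acsl3 and Acsl4 fell. Levels are given as deposited CPM, that is counts scaled to a common library total, in libraries 1, 2 and 3 of each group. Fold changes of single genes come from the edgeR fit, which also applies TMM scaling factors. They therefore differ somewhat from the ratio of the CPM means printed beside them. Since CPM is not divided by transcript length, levels are compared between libraries and not between genes. In RNA from whole cultures, fewer cells of a type and less RNA per cell cannot be told apart.

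**Figure D1:**
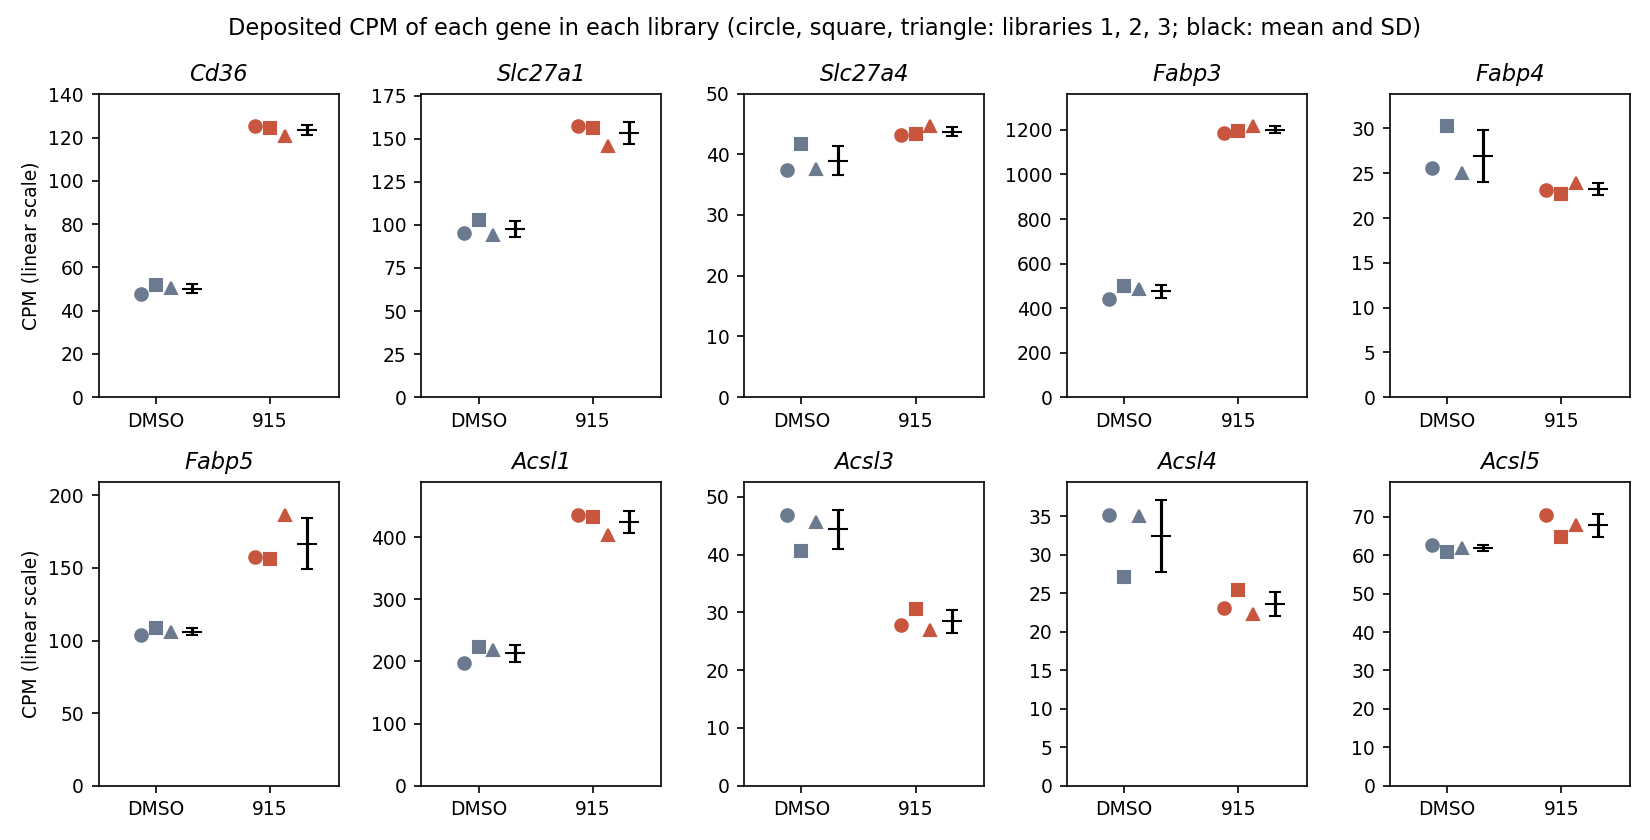
Deposited CPM (vertical axis, linear, from 0) of each of the 10 genes in each library of the DMSO and 915 groups, with the mean and SD of 3 libraries in black. Fabp3 sat between 441 and 500 CPM with DMSO and between 1188 and 1218 with 915, and Acsl3 between 40.6 and 47.0 with DMSO and between 26.9 and 30.6 with 915.

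Of the 3 uptake genes among the 10, Cd36 rose most, Slc27a1 less and Slc27a4 least. Cd36 (ENSRNOG00000040108) was at 47.7, 51.9 and 50.6 CPM in the DMSO libraries and at 125, 124 and 121 CPM in the 915 libraries. The lowest 915 library was above the highest DMSO library by more than the whole spread of either group. The log2 fold change was 1.35 ± 0.0538 (SE; edgeR adjusted p = 1.40e-10), and 1.02% of the genes tested had a higher value. The count table lists the gene in 3 rows with the same counts and different Entrez numbers, of which RefSeq assigns a second to Cd36l1, the gene next to Cd36, so reads of the 2 genes may have been joined.

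Slc27a1 (ENSRNOG00000018170), which encodes the transport protein FATP1 of muscle and fat, was at 95.5, 103 and 94.4 CPM with DMSO and at 157, 156 and 146 CPM with 915. The groups did not overlap and differed by 0.70 ± 0.0537 on the log2 scale (edgeR adjusted p = 1.03e-07). Slc27a4 (ENSRNOG00000014369), for the broadly expressed FATP4, was at 37.5, 41.7 and 37.6 CPM with DMSO and at 43.2, 43.4 and 44.6 CPM with 915. DMSO library 2 came close to the 915 libraries. Its change of 0.22 ± 0.0632 on the log2 scale passed (edgeR adjusted p = 0.0107), but without DMSO library 1 it was 0.18 and did not (edgeR adjusted p = 0.0566). The ratio of Slc27a1 to Slc27a4 counts went from 2.51 ± 0.0390 (SD, n = 3) to 3.51 ± 0.205, a 1.39-fold increase with no overlap (exact two-sided permutation p = 0.1). Here and below, 0.1 is the smallest p that 3 against 3 libraries allow, and 9 such ratios were compared, with an adjusted p of 0.1 for each.

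Among the binding protein genes the heart form rose most. Fabp3 (ENSRNOG00000012879) was at 441, 500 and 484 CPM with DMSO and at 1188, 1196 and 1218 CPM with 915. The 915 libraries were nearly alike, with a coefficient of variation of 1.28% against 6.51% for DMSO. The log2 fold change was 1.39 ± 0.0543 (edgeR adjusted p = 1.25e-10), the highest of the 10, and 0.961% of genes tested were above it. It exceeded the change of Cd36 by less than the SE of either. Fabp5 (ENSRNOG00000049075) was at 104, 109 and 106 CPM with DMSO and at 157, 156 and 187 CPM with 915. Library 3 of the 915 group stood above the other two, and every 915 library was above every DMSO library. The rise was 0.70 ± 0.0668 on the log2 scale (edgeR adjusted p = 9.12e-07), or 0.61 without 915 library 3.

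Fabp4 (ENSRNOG00000010805) was at 25.6, 30.3 and 25.0 CPM with DMSO and at 23.2, 22.7 and 24.0 CPM with 915. The 915 values lay below all DMSO values, but the distance between the nearest libraries was small beside the spread of the DMSO group, in which library 2 was high. A log2 fold change of −0.16 ± 0.0816 did not pass the test (edgeR adjusted p = 0.111), and without DMSO library 2 it was −0.06. Scaled by library totals alone it was −0.22 and passed (edgeR adjusted p = 0.0328). In RefSeq's order of protein-coding genes on GRCr8, Fabp4 and Fabp5 are separated by Fabp9 and Pmp2 alone. The ratio of Fabp5 to Fabp4 counts went from 3.96 ± 0.331 to 7.15 ± 0.558, 1.81-fold, without overlap (exact permutation p = 0.1). Fabp9 was at 0 to 2 counts and Pmp2 at 0 to 28 counts per library.

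**Figure D2:**
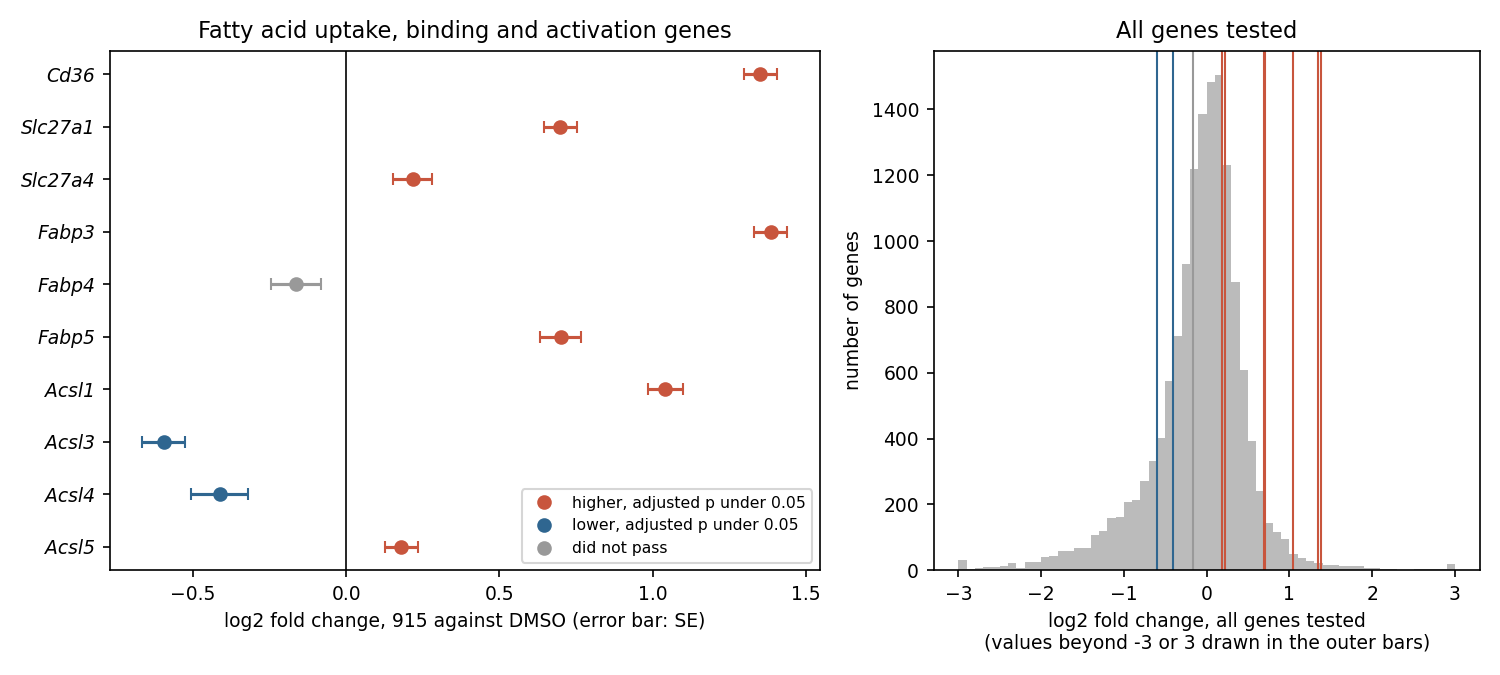
Left, log2 fold change of each gene with 915 against DMSO, with its SE. Right, the number of genes at each log2 fold change among all 14253 tested, with the 10 genes as vertical lines. Fabp3 at 1.39 and Cd36 at 1.35 lie in the upper tail, Acsl3 at −0.60 and Acsl4 at −0.41 lie on the lower side, and Fabp4 at −0.16 lies near the middle.

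The acyl-CoA synthetase genes moved in opposite directions. Acsl1 (ENSRNOG00000010633) was at 197, 224 and 218 CPM with DMSO and at 436, 433 and 403 CPM with 915. The groups were far apart, and the log2 fold change was 1.04 ± 0.0569 (edgeR adjusted p = 2.97e-09). Acsl5 (ENSRNOG00000016265) was at 62.7, 60.9 and 61.9 CPM with DMSO and at 70.6, 64.8 and 68.0 CPM with 915. The groups did not overlap, but 915 library 2 was near the DMSO values. A change of 0.18 ± 0.0535 on the log2 scale passed (edgeR adjusted p = 0.0118). It did not pass without 915 library 1, at 0.15 (edgeR adjusted p = 0.0636), or with library totals alone, at 0.12 (edgeR adjusted p = 0.0706).

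Acsl3 (ENSRNOG00000014718) was at 47.0, 40.6 and 45.7 CPM with DMSO and at 27.8, 30.6 and 26.9 CPM with 915. Every 915 library was lower than every DMSO library, and the difference was −0.60 ± 0.0710 on the log2 scale (edgeR adjusted p = 8.34e-06). Acsl4 (ENSRNOG00000019180) was at 35.2, 27.1 and 35.0 CPM with DMSO and at 23.0, 25.4 and 22.3 CPM with 915. DMSO library 2 lay close to the 915 group. Its log2 fold change, −0.41 ± 0.0928 (edgeR adjusted p = 2.04e-03), was −0.52 without that library. Acsl3 and Acsl4 were both lowest in DMSO library 2 among the DMSO libraries and both highest in 915 library 2 among the 915 libraries. The ratio of Acsl3 to Acsl4 counts was 1.33, 1.50 and 1.31 in the DMSO libraries and 1.21 in each 915 library.

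Shares within each family show the redistribution of counts. They are shares of counts, not of molecules, since no transcript lengths were used here. Among the counts of Fabp3, Fabp4 and Fabp5, Fabp3 took 77.3%, 78.3% and 78.7% in the DMSO libraries and 86.8%, 87.0% and 85.2% in the 915 libraries, a difference of 8.26 percentage points. Fabp5 went from 17.5% ± 0.628 (SD, n = 3) to 12.0% ± 0.960, although its own level rose. The share of Fabp4 went from 4.43% ± 0.335 to 1.67% ± 0.0210. The summed level of these 3 genes went from 608 ± 35.3 to 1390.3 ± 33.1 CPM, 2.29-fold. Fabp3 thus gained relative to both others, 1.62-fold against Fabp5 and 2.92-fold against Fabp4.

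Among the counts of the 4 Acsl genes, Acsl1 took 57.7%, 63.5% and 60.4% with DMSO and 78.2%, 78.2% and 77.5% with 915, a difference of 17.4 percentage points. The shares of Acsl3, Acsl4 and Acsl5 went from 12.6% ± 1.10 to 5.23% ± 0.278, from 9.23% ± 1.37 to 4.34% ± 0.232 and from 17.6% ± 0.630 to 12.5% ± 0.698. The share of Acsl5 was lower although its level was slightly higher. Summed, the 4 genes went from 352 ± 8.98 to 544 ± 20.3 CPM, 1.55-fold. The pair Slc27a1 and Slc27a4 went from 137 ± 7.02 to 197 ± 5.53 CPM, 1.44-fold. Over all 5 Slc27a genes in the table the sum was 272 ± 11.6 CPM with DMSO and 273 ± 8.80 CPM with 915, and the groups overlapped (exact permutation p = 0.9). Slc27a3, which is not among the 10, was lower with 915. Over every Fabp or Acsl gene in the table the sums were 2.28-fold and 1.55-fold higher. For each of the 7 shares and the 3 sums over the 10 genes the groups did not overlap, and the exact two-sided permutation p was 0.1, as was the value adjusted over the shares or over the sums.

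**Figure D3:**
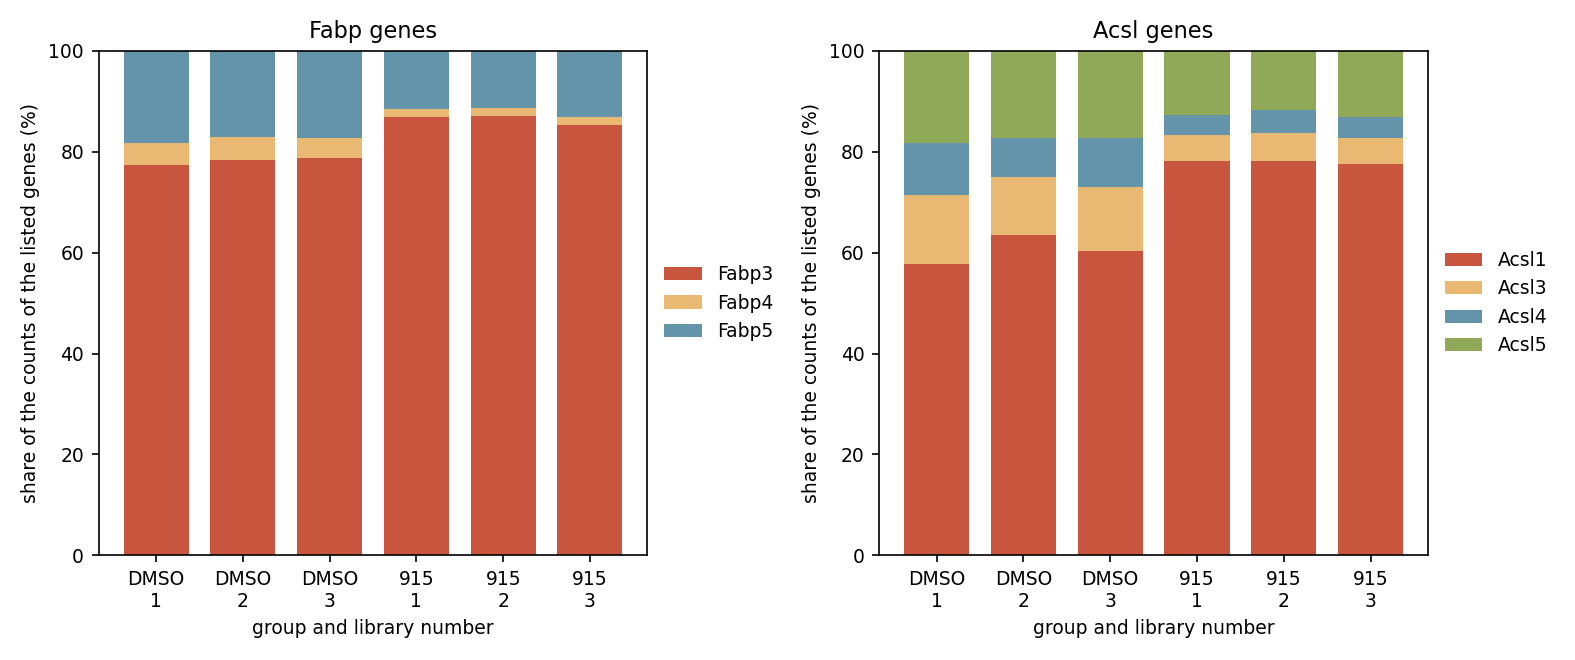
Share of each gene (vertical axis, percent) in the counts of the Fabp genes (left) and of the Acsl genes (right) in each of the 6 libraries. The Fabp3 segment goes from 78.1% on average with DMSO to 86.4% with 915, and the Acsl1 segment from 60.5% to 78.0%.

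Other genes of these families were measured beside the 10. Of 13 that were found in the table, 6 were tested, 1 was higher, 2 were lower and 3 did not pass. The counts here and in each list below stand beside 24.3% called higher and 25.5% called lower among all genes tested. Slc27a3 is the gene of a further transport protein of the family with acyl-CoA synthetase activity. It fell by 0.79 on the log2 scale (edgeR adjusted p = 3.89e-08), while Slc27a1 rose. The level of Slc27a3 went from 135 ± 4.69 to 75.3 ± 4.60 CPM. Acsbg1, a bubblegum-type acyl-CoA synthetase gene, was scarce and fell from 3.39 ± 0.331 to 1.03 ± 0.129 CPM. Acsl6, a form known from brain, was also scarce and rose from 1.16 ± 0.511 to 2.57 ± 0.218 CPM, by 1.19 ± 0.275 on the log2 scale (edgeR adjusted p = 2.40e-03). Fabp1, the liver form, was at 1.83 ± 0.192 and 1.84 ± 0.566 CPM and did not pass. Fabp6, Fabp9 and Fabp12 had at most 3 counts in every library.

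Of the 6 PPAR and RXR receptor genes 5 were higher, and the median log2 fold change was 0.31. Across all genes tested, 24.3% were called higher, and the median was −0.01. Pparg, at 2.52 ± 0.353 and 2.88 ± 0.466 CPM, did not pass. Ppara, the PPAR form known to drive fatty acid genes in heart, went from 10.1 ± 0.681 to 18.6 ± 1.13 CPM, a rise of 0.93 ± 0.0870 on the log2 scale (edgeR adjusted p = 7.78e-07). Its partner genes Rxrg and Rxrb rose 1.73-fold and 1.31-fold. Scaled by library totals alone, 3 of the 6 passed, without Ppard and Rxra, and with the replicate block 4 passed, without Ppard.

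Of 16 measured genes for the modification, docking and movement of CD36, 4 were higher, 4 were lower and 8 did not pass, with a median of −0.01. These shares were near the 24.3% and 25.5% called higher and lower among all genes tested. Got2, a mitochondrial aspartate transaminase also described as a plasma membrane fatty acid binding protein, rose 1.49-fold in the edgeR fit. The level of Got2 went from 327 ± 16.0 to 471 ± 9.19 CPM. Cavin1, a coat protein gene of caveolae that the table lists under its older symbol Ptrf, and Scarb1, a lipoprotein receptor gene related to Cd36, were 1.66-fold and 1.51-fold lower.

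Of 8 tested short-chain, medium-chain and related synthetase genes 3 were higher and 3 lower. Acss1, the mitochondrial acetate-activating enzyme, and Acsf2 rose 2.16-fold and 1.56-fold, and Aacs, the cytosolic acetoacetyl-CoA synthetase that feeds lipid synthesis, was 1.72-fold lower. Of 5 tested acyl-CoA binding protein genes 2 were higher and 1 lower. Among all genes tested, 24.3% were called higher and 25.5% lower, and no test over a list was run. Acbd6 and Acbd4 rose 1.52-fold and 1.22-fold. Dbi, the main acyl-CoA binding protein, fell by 0.15 on the log2 scale (edgeR adjusted p = 0.0196). The level of Dbi went from 335 ± 17.5 to 291 ± 4.49 CPM. With the replicate block Dbi did not pass.

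**Figure D4:**
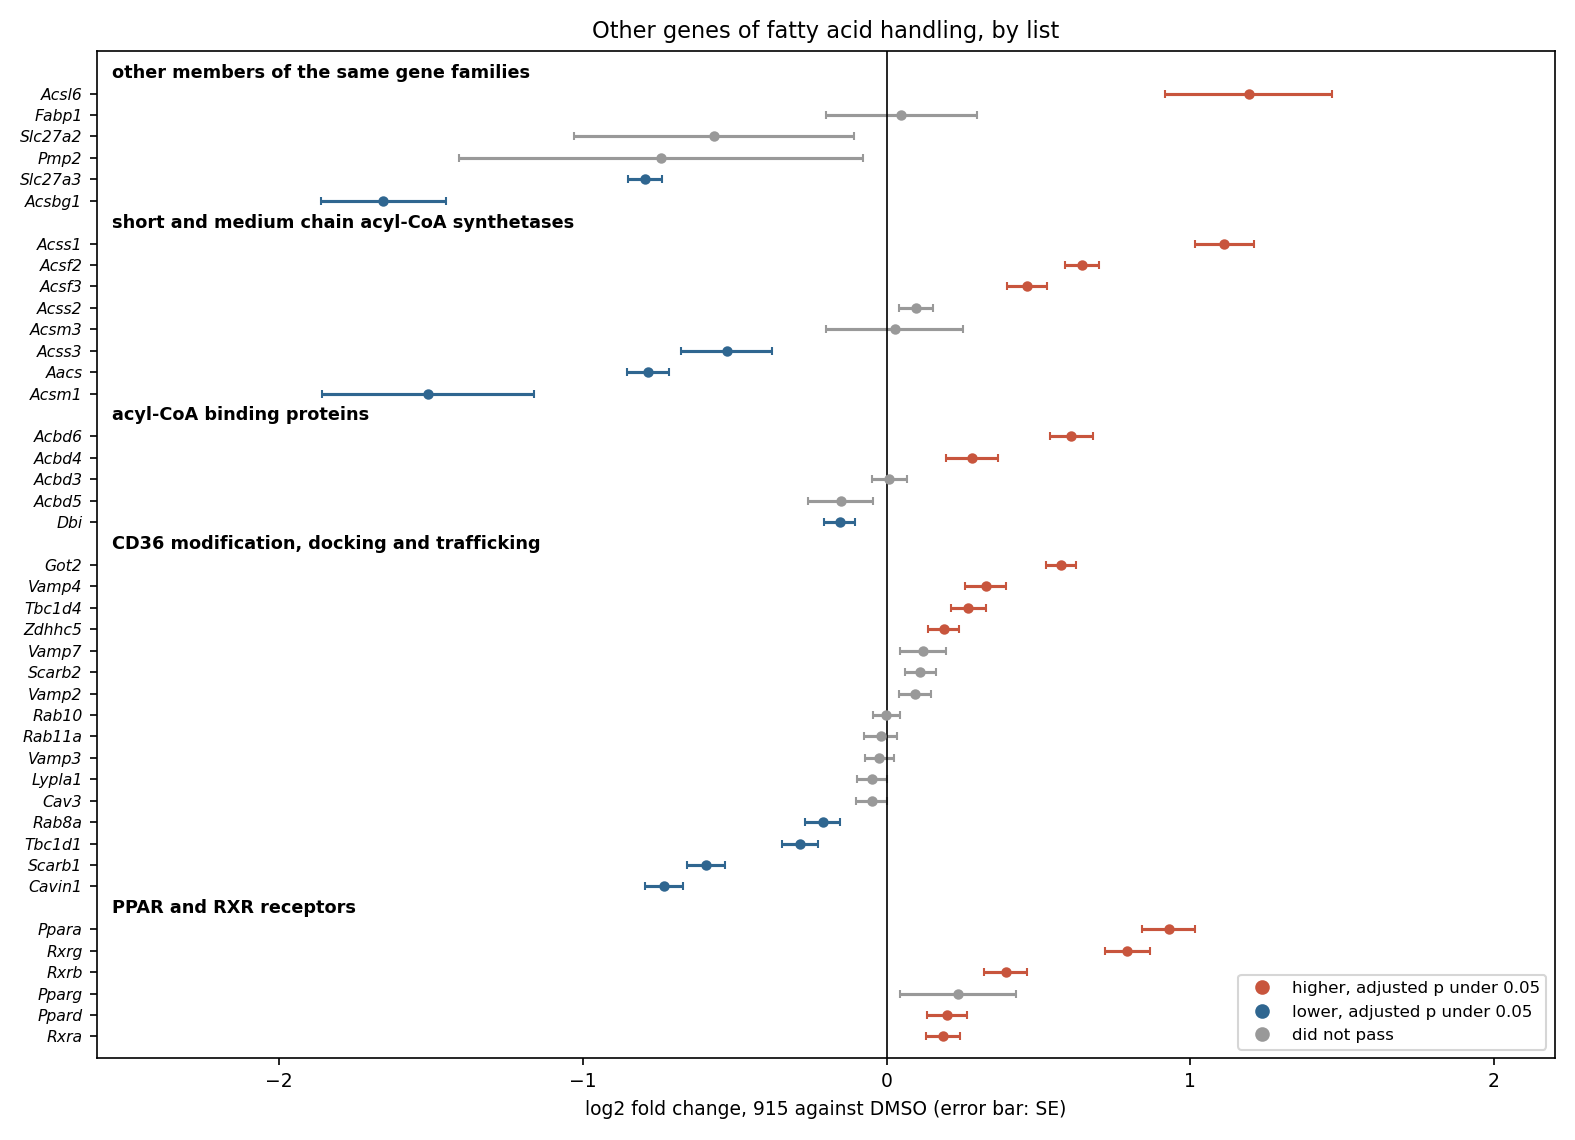
Log2 fold change with 915 against DMSO, with its SE, for the tested genes of 5 further lists of fatty acid handling. The receptor genes lie to the right of 0 (Ppara at 0.93), while the lists of family relatives (Slc27a3 at −0.79, Acsl6 at 1.19) and of CD36 modification, docking and trafficking (Got2 at 0.57, Cavin1 at −0.73) spread to both sides.

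Markers of the cell types that the cultures could hold moved with the same contrast. All 9 measured cardiomyocyte markers were higher, and their summed level was 20909 to 21986 CPM with DMSO and 29551 to 30180 CPM with 915, with Tnnt2 at 1.22-fold and Myh6 at 1.76-fold. Of 11 fibroblast markers 8 were lower and 2 higher, and the sum went from a range of 32039 to 34013 CPM to one of 17316 to 18231 CPM, with Col1a1 and Fn1 at 1.84-fold and 1.71-fold lower. The 2 higher were Pdgfra and Dcn, by 0.28 and 0.48 on the log2 scale, and Postn did not pass. Most of the fibroblast sum came from Col1a1, Col1a2, Col3a1 and Fn1. Of 12 macrophage markers 7 were lower and 0 higher, with sums of 261 to 293 CPM and 130 to 156 CPM. Lyz2 was 2.06-fold lower, and Cd68, at 47.9 ± 4.95 and 40.6 ± 5.04 CPM, did not pass. With library totals alone, 9 were lower, with Cd68 and C1qa among them. Of 10 endothelial markers 5 were lower and 1, Kdr, was higher, with sums of 279 to 301 CPM and 240 to 256 CPM, most of it from Eng, which did not pass (edgeR adjusted p = 0.0512). With library totals alone Eng passed and 6 were lower, and with DESeq2 4 were, without Cldn5. Of 8 adipocyte markers 5 were tested, 3 were higher, 1 was lower and 1 did not pass. Plin1, for the coat protein of adipocyte lipid droplets, averaged 2.79 ± 0.237 CPM with DMSO and 0.874 ± 0.213 CPM with 915, and was called lower (edgeR adjusted p = 5.50e-05). Cidec and Retn were called higher at no more than 21 counts in any library. The adipokine gene Adipoq was at 0.115 ± 0.0794 and 0.0629 ± 0.0147 CPM, near the 0.0698 to 0.0917 CPM that 3 counts represent. The summed level of 60.1 to 74.3 CPM with DMSO and 114 to 120 CPM with 915 came mostly from Cidea, which rose 1.96-fold, while Cfd did not pass. No marker of these lists was at 0 in all libraries, and Cldn5, Lep, Cidec and Adig were at 0 in at least 1.

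Set against the summed cardiomyocyte markers of the same library, Fabp3, Cd36 and Acsl1 were still higher with 915, by 0.86, 0.83 and 0.52 on the log2 scale. Fabp5 and Slc27a1 were higher by 0.17 each. On the same scale Slc27a4 and Acsl5 were lower, by −0.31 and −0.35, as were Acsl3 (−1.12), Acsl4 (−0.93) and Fabp4 (−0.68). The groups did not overlap in any of these 10 ratios (exact permutation p = 0.1 each). The 9 markers changed by 0.23 (Actn2) to 1.07 (Tnni3) on the log2 scale, so the ratios depend on the markers summed. Tnni3 rose about as much as Acsl1, at 1.04. Tnni3, Myl3 (0.95) and Myh6 (0.81) rose more than Fabp5 and Slc27a1, at 0.70 each, and the other markers rose less. Set against the summed endothelial markers, Cd36 was higher by 1.53 and Fabp5 by 0.87, while Fabp4 differed by 0.014 and its groups overlapped (exact permutation p = 1). Most of the endothelial sum came from Eng, which changed by −0.13 on the log2 scale. The median over the 10 endothelial markers was −0.56. Ratios to the macrophage sum, which was 0.53-fold with 915, were not computed. The marker genes can themselves respond to the compound, and the part that the makeup of the cultures has in these changes was not tested.

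**Figure D5:**
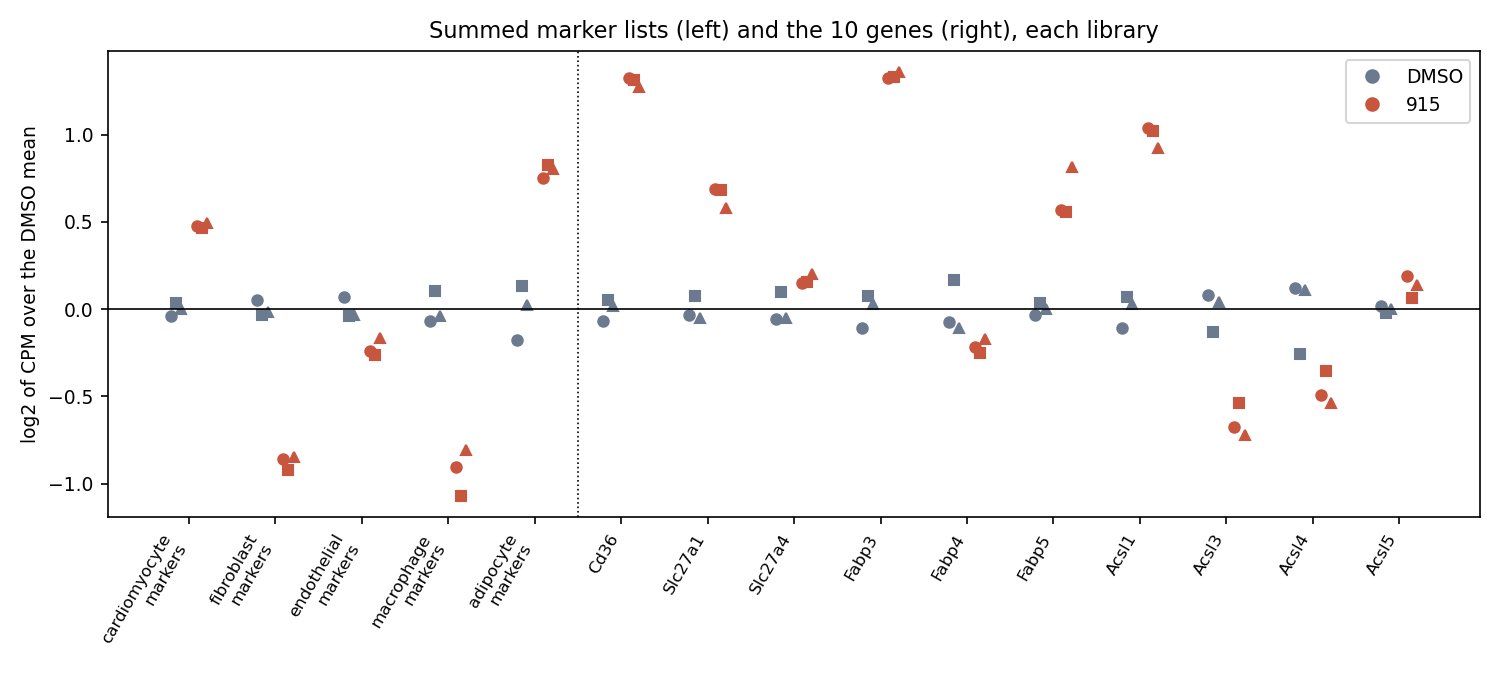
Log2 of the level in each library over the DMSO mean, for the summed CPM of 5 marker lists (left of the dotted line) and for the 10 genes (right). The cardiomyocyte sum lies above its DMSO values in all 915 libraries and the fibroblast and macrophage sums lie below, while Cd36, Fabp3 and Acsl1 rise further than the cardiomyocyte sum.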

How the data were processed

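RNA was measured in 3 DMSO and 3 compound 915 libraries. The authors deposited raw counts per gene and a CPM table, in which the counts of each library are divided by a single total. Per the submitters' processing notes, STAR 2.5.1a, featureCounts 1.4.6-p5 and the build Rnor_6.0 were used. For the strand setting and for reads with several mapping positions, the sources used here give nothing. Of 22641 rows, 993 repeated an Ensembl identifier with the same counts and were dropped. The table held 93.1% to 93.7% of the authors' totals.

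Counts were filtered with filterByExpr, scaled by TMM and fitted with edgeR 4.0.16 (quasi-likelihood, group alone) in R 4.3.3, with Benjamini-Hochberg adjustment over 14253 genes and a threshold of 0.05. The SE is the size of the log2 fold change divided by the square root of F. Shares, sums and ratios were compared by exact permutation over libraries. The 10 genes, 10 other lists and tests were chosen with earlier results of these data known. Of 109 list entries 101 were matched, 2 of them through RefSeq's table. Cav1, Cav2 and Zdhhc4 of the CD36 list were not matched, nor were Slc27a6, Scp2, Acsm2, Ttn and Pecam1. The text names all 10 genes, up to 3 called genes with the smallest p of each pathway list and the 2 marker genes with the highest mean CPM of each marker list. Adipoq, Plin1, Retn, C1qa, Zdhhc5, Pparg, Ppard, Rxra, Fabp1, Fabp6, Fabp9, Fabp12, Pmp2, Cldn5, Lep, Cidec and Adig were named after their values were seen. So were Pdgfra, Dcn, Postn, Col1a2, Col3a1, Actn2, Tnni3 and Myl3. Alternatives were RLE factors, no scaling, no filter, DESeq2 1.42.0, a replicate block and leaving out each library. On simulated counts for this comparison, 14111 genes were tested. Of these, 82 of 99 genes changed 1.5-fold, 94 of 99 changed 2-fold and 9 of 13913 unchanged genes were called. The simulation gave every gene the same biological coefficient of variation, 6.84%, and changed far fewer genes than were called in the data. These rates therefore need not hold for genes that vary more, or for scaling when many genes change. No library repeated another (chi-square over genes between libraries of a group, divided by its degrees of freedom, 5.45 to 11.6). No correction for amplification was made here, so the SEs and SDs given do not separate it from other sources of spread.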

Additional observations from a re-analysis of the deposited data

How the results depend on the processing

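Among the lists of further genes and markers, call changes are given with each list, except that Zdhhc5 of the CD36 list lost its call with library totals alone, and no called gene changed sign under another scaling, DESeq2 or the replicate block. Of 154 planned comparisons of a fold change or a count of calls with an alternative, 150 kept their direction and side of the threshold, or stayed within 1.5 times for a count, and none reversed. The other 70, of shares and sums, kept their direction, and their permutation p could not pass the threshold with 3 or fewer libraries a group. With library totals alone, Fabp4 passed at −0.22 and Acsl5 no longer passed at 0.12, so that 6 genes were higher and 3 lower. Of all 14253 genes tested, 2808 were then called higher and 4285 lower. Their median log2 fold change was −0.07 under this scaling, against −0.01 in the main fit. Over the fits that left out 1 library, the log2 fold change ranged from 0.18 to 0.28 for Slc27a4, which did not pass without DMSO library 1, and from 0.15 to 0.21 for Acsl5, which did not pass without 915 library 1. The number of the 10 genes called higher was then 6 or 7 and the number lower 2. In the same fits, 2939 to 3496 of all genes were called higher and 3105 to 3551 lower. Ratios to marker sums, and sums over whole families, were chosen after seeing the data. Against the cardiomyocyte sum, Slc27a4 and Acsl5 reversed to −0.31 and −0.35, and the values were 0.83 for Cd36, 0.86 for Fabp3, 0.52 for Acsl1, 0.17 for Fabp5 and Slc27a1, −0.68 for Fabp4, −1.12 for Acsl3 and −0.93 for Acsl4. Against the endothelial sum, Cd36 was at 1.53, Fabp5 at 0.87 and Fabp4 at 0.014. Over every Slc27a gene in the table, the log2 ratio of the summed level was 0.0020. The labels do not say what a replicate number shares, so the numbers were not taken as pairs. Same-numbered libraries did not deviate together (correlations −0.03, −0.11 and −0.09), and unlike-numbered ones were at −0.006 to 0.09. With 3 libraries a group, these correlations cannot settle whether same-numbered libraries shared an isolation. With the replicate block 2996 genes were called higher and 3197 lower, and the calls of the 10 genes did not change, with Fabp3 at 1.39, Acsl5 at 0.18 and Acsl4 at −0.41. Shares per transcript length were not run, because no transcript lengths were used here. Each of the 10 genes had at least 742 counts in every library, so counting depth did not limit them, while family relatives at a few counts could not be compared.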
